A study of Homo sapiens with 21 samples.

Results

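GO-203 and an inducible shRNA both target MUC1-C, the transmembrane subunit of the mucin MUC1, and the genes that they moved alike, in opposite directions or alone were separated here over 12 of the 21 RNA-seq libraries of the series. BT-549 is an established triple-negative breast cancer line, and its 3D cells are mammospheres, floating spheres kept in serum-free medium and passaged 6 times. The 12 libraries fall into 4 groups of 3 cultures. Untransduced 3D cells received 0.75 umol/L GO-203 or served as control, which the authors describe as given a vehicle that they do not name. The 3D cells of the tet-MUC1shRNA line received 0.1% DMSO (here called vehicle) or 500 ng/ml doxycycline (DOX). The GO-203 effect is the log2 fold change of treated against control untransduced cells. The silencing effect is that of DOX against vehicle in the tet line, and their difference is the GO-203 effect minus the silencing effect.

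The arms differ in more than the way in which MUC1-C is targeted. Both groups of the GO-203 arm are untransduced cells, while every tet line library comes from cells that were transduced with 1 shRNA in a lentiviral vector and selected with puromycin. The labels give DMSO for the vehicle group only, the time in GO-203 is not given in the sources used here, and the 12 libraries hold no DOX-treated culture without this shRNA. For BT-549 sphere assays and immunoblots the authors state higher GO-203 concentrations than for these libraries. Line, agent, dose, DMSO, DOX and time therefore cannot be told apart from the means of targeting MUC1-C. Where nothing in the sources says how separate the 3 cultures of a group are, the p-values measure the spread between them only.

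MUC1-C is left in the membrane when the MUC1 protein is cleaved, and its cytoplasmic tail holds a CQC motif through which it forms homodimers. GO-203 is a cell-penetrating peptide that binds this motif and blocks dimers without cutting the mRNA, whereas an shRNA lowers the mRNA itself. Mammosphere culture is used to enrich for cells with stem-like growth, and MUC1-C has been tied in such cells to glycolysis, to hypoxia signalling and to the transcription factor MYC.

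The target itself set the arms apart. MUC1 (chromosome 1, 155185824 to 155192916, minus strand, GRCh38) was counted at 218, 226 and 182 CPM (counts scaled to library size) in control 3D cells and at 263, 277 and 246 CPM with GO-203. In the tet line it stood at 98.6, 80.9 and 83.8 CPM with vehicle and at 19.4, 20.8 and 23.1 CPM with DOX. All libraries with GO-203 were above their controls and all libraries with DOX were below theirs. The GO-203 effect was 0.33 (SE 0.08, adjusted p = 0.0027) and the silencing effect -2.06 (SE 0.08, adjusted p = 5.6e-17), with a difference of 2.39 (SE 0.11, adjusted p = 3.4e-15). MYC did not pass under GO-203 (log2 fold change -0.02, adjusted p = 0.85) and rose on silencing by 0.24 (adjusted p = 8.8e-05).

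Library totals ran from 38026597 to 67725005 counts, so the spread between cultures, not counting error, set the precision except for genes with few counts in a group. All 8 mesenchymal markers of BT-549 cells stood above 1 CPM in every library, and their summed level was 11600 to 12900 CPM in untransduced cells, 14600 to 15700 CPM with vehicle and 10600 to 11400 CPM with DOX. At an adjusted p below 0.1, 6 of them fell and 2 rose on silencing, beside 28.8% and 27.3% of all genes tested, and 2 fell and 1 rose with GO-203, beside 13.1% and 10.7%. The summed level of 10 luminal markers was 22.6 to 27.5 CPM, most of it ERBB2, and that of 7 leukocyte markers was at most 1.37 CPM. In the DOX libraries the luminal sum was 23.6 to 26.4 CPM, with ERBB2 at 19.1, 20.3 and 22.7 CPM. Of the 7 luminal markers tested, 5 rose and 1 fell on silencing by the same rule, and none passed with GO-203. The keratin KRT8 went from 0, 0.0458 and 0.0761 CPM with vehicle to 1.36, 1.47 and 1.13 CPM with DOX, and the part of such cells or genes in the results was not tested. Mitochondrially encoded genes took 2.31% to 2.72% of the counts in control 3D cells, 3.34% to 4.4% with GO-203, 2.6% to 2.78% with vehicle and 6.36% to 6.72% with DOX.

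Silencing moved more genes, and by more, than GO-203 did. Of 20829 genes tested, GO-203 changed 1195 (5.74%), with 743 up and 452 down, where a call needed a fold change of more than 1.5 either way and an adjusted p under 0.1. Silencing changed 6180 (29.7%), with 3316 up and 2864 down. The balance turned among genes with a mean normalized count of at least 100, of which silencing raised 1320 and lowered 2045. The effects differed from each other by these thresholds in 5266 genes (25.3%), of which 2755 were higher and 2511 lower with GO-203 than on silencing. The median size of a log2 fold change over all genes tested was 0.21 for GO-203 and 0.44 for silencing.

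Among the genes moved by both, 285 rose alike and 130 fell alike, while 96 rose with GO-203 and fell on silencing and 118 fell with GO-203 and rose on silencing. These balances depend on the fold threshold: with the adjusted p alone 915 of 2235 genes moved alike rose, and with an absolute log2 fold change above 1.5 only 5 of 27 genes moved oppositely rose with GO-203. Of the 743 genes that GO-203 raised, 38.4% were also raised by silencing, beside 15.9% of all genes tested, and 12.9% were lowered, beside 13.8%. Of the 452 genes that GO-203 lowered, 28.8% were lowered by silencing, beside 13.8%, and 26.1% were raised, beside 15.9%. Read from the other side, GO-203 raised 8.6% of the genes that silencing raised, beside 3.57% of all genes, and lowered 3.56% of them, beside 2.17%. It lowered 4.54% of the genes that silencing lowered, beside 2.17%, and raised 3.35% of them, beside 3.57%. Across all genes tested, Pearson's r between both effects was 0.11, a description over genes that share libraries and are not independent.

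Genes were counted as moved alone where the other effect had an adjusted p of at least 0.1 and the effects differed by the same thresholds. By this rule 135 genes rose and 94 fell with GO-203 alone, and 1462 rose and 1515 fell on silencing alone, of which 630 and 1075 had a mean normalized count of at least 100. Among the rises, 26 were at 3 counts or fewer in every untransduced library, so they entered the test through the tet line only. Among the falls, 1 was at 3 counts or fewer in every tet line library. Without the genes at this floor in either line, 2950 in place of 2977 were moved by silencing alone. A further 188 genes called under GO-203 and 1516 called on silencing did not pass in the other arm, but without a called difference they were not separated. A p above the threshold does not show that the other arm left a gene as it was, so the size of the other effect is given with the genes below. A fold threshold also splits near neighbours, and 246 genes lay within 0.1 above and 321 within 0.1 below it under GO-203.

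**Figure D1:**
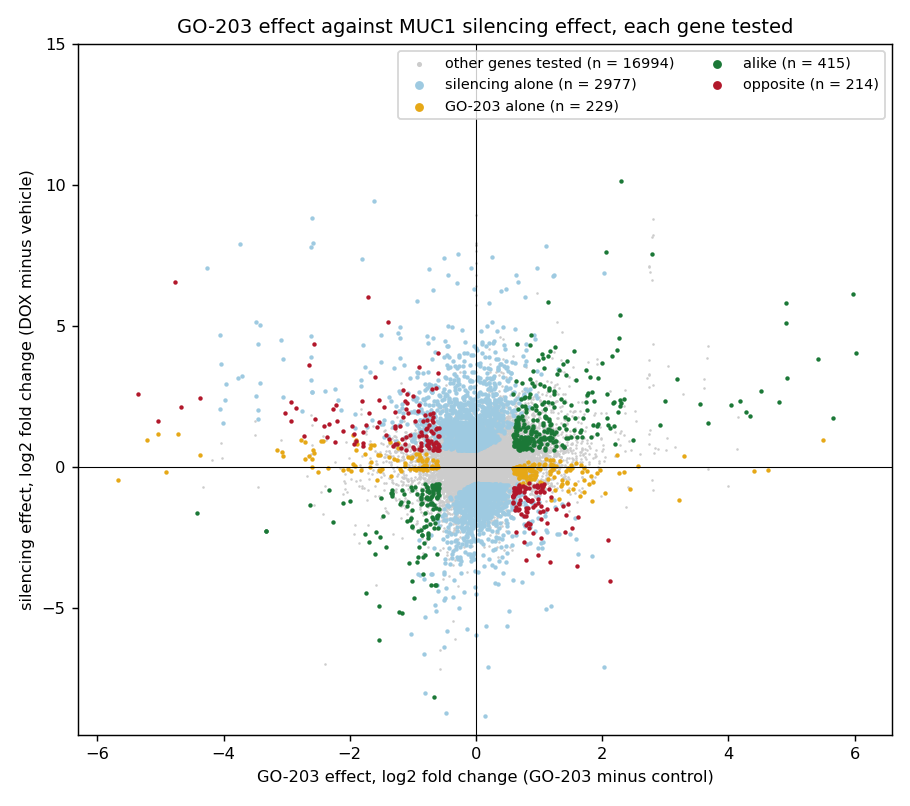
Each point is 1 of 20829 genes tested, with the GO-203 effect on the horizontal and the silencing effect on the vertical axis, both as log2 fold changes. The 415 genes moved alike lie in the upper right and lower left, the 214 moved oppositely in the other corners, and the 2977 moved by silencing alone spread along the vertical axis.

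Among genes with a mean normalized count of at least 100, the shared rises were led by the keratins KRT6A and KRT5, filament proteins of basal and stratified epithelia. KRT5 stood at 25.9, 22.6 and 24.9 CPM in control 3D cells and at 100.1, 102 and 91.0 CPM with GO-203. In the tet line it was at 1.14, 1.58 and 0.799 CPM with vehicle and at 14.5, 16.1 and 14.4 CPM with DOX. Treated and control libraries did not overlap in either arm, as for 31.3% of all genes tested with GO-203 and 59.3% on silencing, and vehicle libraries began far below untransduced cells and DOX libraries did not reach the untransduced control. The GO-203 effect was 2.00 (SE 0.08, adjusted p = 2.9e-15), the silencing effect 3.70 (SE 0.13, adjusted p = 2.4e-18) and their difference -1.70 (SE 0.16, adjusted p = 2.4e-09). KRT6A rose by 2.78 with GO-203 and by 7.56 on silencing, the latter from 0.0762, 0.0916 and 0 CPM with vehicle, so that the size of this fold rests on few counts.

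MAP2, a microtubule-associated protein best known from neurons, went from 16.1, 16.5 and 17.4 CPM to 51.2, 47.2 and 51.2 CPM with GO-203. On silencing it went from 4.22, 4.31 and 4.60 CPM to 36.9, 36.2 and 37.7 CPM. Silencing thus raised it by more, with effects of 1.58 and 3.07 that differed by -1.49 (SE 0.10, adjusted p = 2.1e-12). The cadherin CDH11, an adhesion protein of mesenchymal cells, rose by 1.40 (SE 0.10) and 1.5 (SE 0.12), with a difference of -0.10 (SE 0.16, adjusted p = 0.65). ITGB8, an integrin beta subunit, rose by 1.93 and 3.14. LRRN1, a leucine-rich repeat membrane protein, rose by 2.13 with GO-203 and by 1.38 on silencing, and its difference of 0.74 (adjusted p = 0.094) was lost when any of 8 of the 12 libraries was left out.

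Among the shared falls, NPTX1, a pentraxin secreted by neurons, was at 245, 248 and 272 CPM in control cells and at 85.0, 81.5 and 89.4 CPM with GO-203. It was at 264, 183 and 217 CPM with vehicle and at 45.6, 45.3 and 43.2 CPM with DOX. Its controls were at like levels in both arms, and the fall was larger on silencing (-2.30, SE 0.09) than with GO-203 (-1.58, SE 0.08), by 0.72 (SE 0.12, adjusted p = 1.2e-05). CAMK2N1, an inhibitor of the kinase CaMKII, fell by 1.23 with GO-203 and by 5.16 on silencing. SLC1A6, a glutamate transporter, fell by 1.54 and 4.94, and ZNF488, a transcriptional repressor, by 1.42 and 2.85. PAQR9, a membrane receptor of the progestin and adipoQ family, fell by 1.20 and 1.33, with a difference of 0.12 (SE 0.22, adjusted p = 0.72). PGF, an angiogenic growth factor, fell by 1.52 and 2.49.

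Where both agents moved a gene the same way by these thresholds, silencing more often gave the larger fold. The effects differed in 81 of the 285 shared rises, and silencing was the larger in 77 of them. They differed in 55 of the 130 shared falls, with silencing the larger in 54.

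Among genes with a mean normalized count of at least 100, CNR1, the cannabinoid receptor 1, led those that GO-203 raised and silencing lowered, by the smaller of both folds. It stood at 25.5, 29.2 and 25.1 CPM in control 3D cells and at 71.3, 64.7 and 76.2 CPM with GO-203. With vehicle it stood at 23.3, 22.5 and 25.5 CPM and with DOX at 5.02, 4.97 and 4.53 CPM. The controls of both arms thus lay at like levels, and the treated libraries lay on either side of them. The GO-203 effect was 1.41 (SE 0.07), the silencing effect -2.29 (SE 0.08) and the difference 3.70 (SE 0.11, adjusted p = 7.4e-19).

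IL6, a cytokine that signals through STAT3, rose from 8.30, 7.66 and 7.90 CPM to 16.2, 16.8 and 17.1 CPM with GO-203. On silencing it fell from 15.6, 18.8 and 16.0 CPM to 5.35, 6.76 and 4.75 CPM. The vehicle libraries were about as high in IL6 as the untransduced cells with GO-203. The doublecortin-like kinase DCLK1 changed by 1.12 and -2.01, the protease inhibitor gene PI15 by 1.27 and -1.5, the RING finger gene RNF150 by 1.37 and -1.39, and the interleukin 7 receptor IL7R by 1.03 and -1.38. SPARC, a matrix protein and BT-549 marker, changed by 0.68 and -0.90, and SNAI2, a transcription factor of epithelial-mesenchymal transition, by 0.60 and -0.76.

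Of the genes that fell with GO-203 and rose on silencing, MYH15, a myosin heavy chain, changed by -2.85 (SE 0.10) and 2.10 (SE 0.09). It went from 22.7, 19.6 and 21.2 CPM to 2.92, 2.79 and 3.06 CPM with GO-203 and from 7.39, 6.25 and 7.17 CPM to 27.1, 32.0 and 30.1 CPM with DOX. NOS2, the inducible nitric oxide synthase, went from 25.9, 25.4 and 23.7 CPM to 8.05, 8.72 and 9.16 CPM with GO-203. With vehicle NOS2 was at 22.2, 22.5 and 20.4 CPM and with DOX at 65.0, 67.9 and 64.6 CPM. As for CNR1, its controls were at like levels, and its effects of -1.53 and 1.60 differed by -3.13 (SE 0.09, adjusted p = 7.7e-19).

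ADAM19, a membrane metalloprotease, changed by -1.46 and 2.13, MAST4, a serine/threonine kinase, by -1.80 and 2.36, and GFI1, a transcriptional repressor, by -1.74 and 1.48. SERPINB2, the plasminogen activator inhibitor 2, was low in untransduced cells, at 0.358 to 0.542 CPM, and changed by -1.96 and 1.44, with 20% of its exon bases shared with genes on the same strand. CCND1, the G1 cyclin D1, fell from 100.0, 98.5 and 97.6 CPM to 55.7, 51.4 and 52.0 CPM with GO-203 and rose from 118, 125 and 122 CPM to 193, 189 and 185 CPM on silencing.

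**Figure D2:**
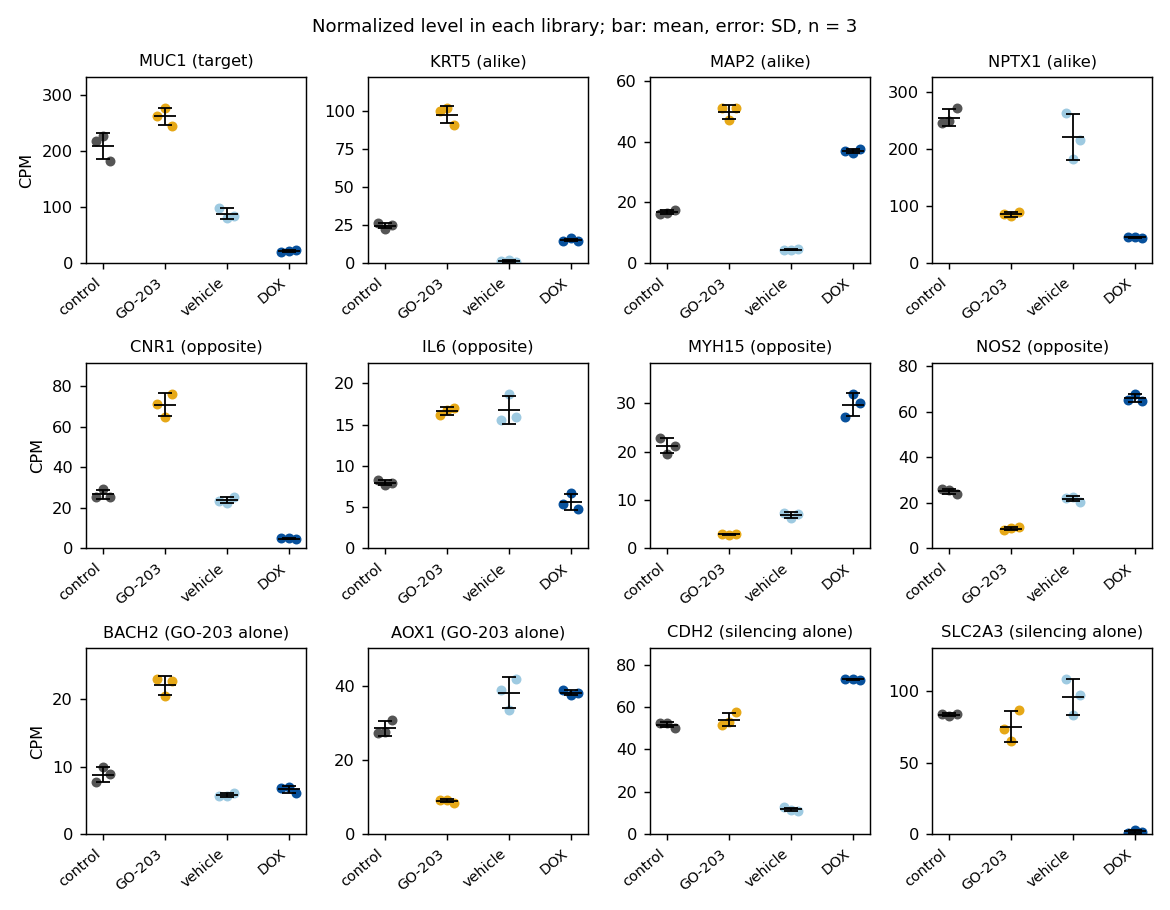
Points are the normalized levels in CPM of 12 genes in each of the 12 libraries, with the mean and SD of each group of 3, on axes that start at 0. MUC1 rose slightly with GO-203 and fell with DOX, KRT5 and MAP2 rose in both arms, CNR1 and IL6 rose with GO-203 and fell with DOX, and AOX1 fell with GO-203 and stood at like levels with vehicle and DOX.

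GO-203 alone raised BACH2, a transcriptional repressor of the basic leucine zipper family, from 7.71, 9.89 and 8.86 CPM to 23.0, 20.5 and 22.8 CPM. In the tet line BACH2 was at 5.64, 5.61 and 6.13 CPM with vehicle and at 6.85, 6.99 and 6.06 CPM with DOX, where the groups overlapped. Its GO-203 effect was 1.32 (SE 0.10, adjusted p = 1.3e-10), its silencing effect 0.20 (SE 0.11, adjusted p = 0.12) and the difference 1.13 (SE 0.14, adjusted p = 3.9e-07). DCN, the matrix proteoglycan decorin, changed by 1.22 with GO-203 and by -0.09 (SE 0.13) on silencing. The scramblase family gene PLSCR4 changed by 1.19 and -0.14 (SE 0.09), the zinc finger gene ZNF608 by 1.17 and -0.24 (SE 0.16), and the long non-coding RNA LINC01239 by 1.18 and -0.14 (SE 0.23).

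AOX1, an aldehyde oxidase, fell with GO-203 from 27.2, 27.6 and 30.9 CPM to 9.23, 9.12 and 8.48 CPM. It was at 38.9, 33.5 and 41.8 CPM with vehicle and at 38.8, 37.4 and 38.1 CPM with DOX, so the groups of the tet line overlapped. The GO-203 effect was -1.68 (SE 0.08, adjusted p = 4.6e-14) beside a silencing effect of 0.00 (SE 0.07). The transcription factor KLF2 fell by 1.66 with GO-203 and had a silencing effect of 0.17 (SE 0.18). The receptor gene TNFRSF19 fell by 1.54, the polysialyltransferase gene ST8SIA4 by 1.52 and MYEOV by 1.49, with silencing effects of -0.11 (SE 0.14), -0.16 (SE 0.22) and -0.09 (SE 0.16).

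Silencing alone lowered the glucose transporter SLC2A3 (GLUT3) from 108, 83.2 and 97.0 CPM to 0.993, 2.63 and 1.49 CPM. SLC2A3 was at 83.8, 82.4 and 84.3 CPM in control 3D cells and at 73.2, 65.4 and 87.1 CPM with GO-203, where the groups overlapped. The silencing effect was -5.76 (SE 0.17, adjusted p = 9.6e-20), beside a GO-203 effect of -0.15 (SE 0.12, adjusted p = 0.47). Its near-identical neighbour SLC2A14 followed with -5.96 and 0.01 (SE 0.23), and reads of both genes may have been shared between them. The adhesion molecule L1CAM changed by -5.00 on silencing and by -0.27 (SE 0.21) with GO-203, and TCAF2, a regulator of an ion channel, by -4.51 and 0.01 (SE 0.22).

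CDH2, the N-cadherin of mesenchymal cells, was among the genes raised by silencing alone, from 12.5, 11.2 and 10.9 CPM to 73.1, 73.1 and 72.9 CPM. GO-203 left it at 51.6, 52.8 and 57.4 CPM beside 52.2, 52.4 and 50.3 CPM in control cells, an effect of 0.06 (SE 0.06, adjusted p = 0.53). The DOX libraries were above the untransduced cells and the vehicle libraries far below them. MUCL1, a small mucin-like protein, rose from 14, 8 and 16 counts with vehicle to 4185, 5151 and 2936 with DOX, and had at most 2 counts in any untransduced library, so no GO-203 effect is given. Its difference of the effects also lost its call without replicate 3 of the control 3D cells (adjusted p = 1). The tetraspanin TSPAN1 rose by 4.40 (SE 0.26) on silencing and the semaphorin SEMA7A by 4.95 (SE 0.35), with GO-203 effects of -0.76 (SE 0.35) and -0.38 (SE 0.70). PSG5, a pregnancy-specific glycoprotein with near-identical relatives, rose by 5.81 beside a GO-203 effect of 0.21 (SE 0.74), and its difference lost its call without replicate 3 of the control 3D cells (adjusted p = 0.11).

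Both control groups differed from each other in many of these genes. Untransduced control and vehicle libraries differed by the same thresholds in 57.5% of the shared rises and 55.4% of the shared falls, beside 31.5% of all genes tested. The share was 64.6% in the genes that GO-203 raised and silencing lowered, 55.1% in those moved the other way round, 57.0% and 45.7% in those raised and lowered by GO-203 alone, and 41.5% and 45.2% in those raised and lowered by silencing alone. The same libraries serve as controls of the effects, so these shares are not independent of them.

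Gene lists with known roles were compared next, with members counted at an adjusted p below 0.1 alone. By this rule GO-203 changed 23.8% of all genes tested (10.7% up, 13.1% down) and silencing 56.1% (27.3% up, 28.8% down). The effects differed in 44.9%, with 24.1% higher and 20.8% lower with GO-203.

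Glycolysis genes fell in both arms, and by more on silencing. Of 23 enzymes and transporters, 19 fell in both, 22 fell on silencing, and none passed upward in either arm. With the fold threshold added, 17 fell on silencing and none with GO-203. Their median log2 fold change was -0.33 with GO-203 and -1.03 on silencing, beside 0.01 and 0.03 over all genes tested, and 17 of the 23 had a higher effect with GO-203 than on silencing. HK2, the hexokinase that traps glucose in the cell, fell from 363, 366 and 348 CPM to 229.9, 219.9 and 268 CPM with GO-203 and from 372, 277 and 295 CPM to 73.6, 79.0 and 68.4 CPM on silencing. Its effects were -0.58 (SE 0.08) and -2.09 (SE 0.08). The enolase ENO2 changed by -0.43 and -3.25, the glucose transporter SLC2A1 (GLUT1) by -0.45 and -1.81, and the aldolase ALDOC by -0.19 and -2.83. The GO-203 effect of ALDOC lost its call without replicate 1 of the control 3D cells or replicate 2 of the GO-203 group, and with all 21 libraries in the fit. LDHA, which makes lactate, and SLC2A3 were lower on silencing only by this test, with GO-203 effects of -0.06 (SE 0.06) and -0.15, and both differences passed. LDHA has 6 pseudogenes named after it. HK1 had the reverse order, with -0.47 beside -0.18.

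Targets of hypoxia-inducible factors (HIF) followed the same order. All 20 fell on silencing, 14 of them also with GO-203, and the medians were -1.85 and -0.33. CA9, the carbonic anhydrase 9, went from 46.1, 44.1 and 43.0 CPM to 25.9, 29.8 and 28.2 CPM with GO-203. With vehicle it was at 48.8, 33.0 and 36.7 CPM and with DOX at 0.0349, 0.273 and 0.0451 CPM, far below its other groups. EGLN3, an oxygen-sensing prolyl hydroxylase, changed by -0.57 and -6.48, the first of which was not called by DESeq2 (adjusted p = 0.204), and NDRG1 by -0.65 and -4.20. The angiopoietin-like protein ANGPTL4 was lower by more with GO-203 (-1.01) than on silencing (-0.51). P4HA2, a collagen prolyl hydroxylase, changed by 0.27 and -1.91. CA9 shares 35.7% of its exon bases with genes on the other strand, and the strand setting of the counting is not given in the sources used here.

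HIF binds a core of ACGTG, and the promoters of 3 of these genes are shown because they hold it and are among the members of both lists whose effects differ most. The windows are RefSeq sequence of GRCh38.p14 before the gene start, 5′ to 3′ on the gene's strand, with the match to the core on either strand in capitals.
CA9, chromosome 9, 35673880 to 35673927, plus strand: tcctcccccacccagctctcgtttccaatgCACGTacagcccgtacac
ENO2, chromosome 12, 6914432 to 6914496, plus strand: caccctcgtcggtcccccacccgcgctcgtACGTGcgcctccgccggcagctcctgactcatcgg
ALDOC, chromosome 17, 28576896 to 28576953, minus strand: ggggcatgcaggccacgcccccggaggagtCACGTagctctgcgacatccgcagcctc
The core was held, in the 300 bases around the start, by 7 of the 19 glycolysis genes lower in both arms (36.8%) and by 6 of the 11 such hypoxia targets with a promoter in the table (54.5%), beside 26% of the 12149 promoters of genes tested. The E-box CACGTG, which MYC binds and which contains the core, was in 2 of the 19 and in 2 of the 11, beside 9.6%. The sets above were taken at the adjusted p alone, while those that follow also passed the fold threshold. The share with the ACGTG core was 23.3% over all shared falls, which hold none of the 19 glycolysis genes, and 25.7% over all shared rises. The core was held by 29.4% of the genes that fell and 20.2% of those that rose on silencing alone, by 21.3% of those that GO-203 raised and silencing lowered, and by 10.8% of those moved the other way round. A match says only that these letters lie in the window. The hypoxia list was chosen as targets of HIF, so its share does not bear on how its genes moved.

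Mitochondrially encoded genes rose in both arms. All 13 protein-coding genes of the mitochondrial genome rose with GO-203 and on silencing, with medians of 0.58 and 1.21, and 10 had a lower effect with GO-203. With all 21 libraries in the fit 12 rose in both arms, and the GO-203 effect of MT-ND3 was not called (adjusted p = 0.111). MT-ND1, a core subunit of respiratory complex I, went from 1126, 1203 and 986 CPM to 1435, 1821 and 1393 CPM with GO-203 and from 1085, 1030 and 956 CPM to 2890, 2830 and 2876 CPM on silencing. Its effects of 0.49 (SE 0.07) and 1.48 (SE 0.08) differed by -1.0 (SE 0.10). MT-ND6, the only one of them coded on the light strand, rose by 0.69 and 0.65 with a difference of 0.04 (SE 0.10, adjusted p = 0.83), and MT-ND4 and MT-ND5 did not pass for a difference either. Of 28 nuclear genes of oxidative phosphorylation, 11 fell and 2 rose with GO-203, 18 fell and 4 rose on silencing and 9 fell in both, with medians of -0.13 and -0.25, the latter -0.09 with scaling by library size alone. CYCS, cytochrome c, changed by 0.25 with GO-203 and -0.83 on silencing, and the first was not called with all 21 libraries in the fit (adjusted p = 0.11). CYCS has 42 pseudogenes named after it, which may share its reads.

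Most S phase genes fell with GO-203 and most rose on silencing, with 13 of 23 passing in both of these directions. Of 23 genes of DNA replication and nucleotide supply, 19 fell with GO-203 and none rose, while 16 rose and 4 fell on silencing, and 3 fell in both. The medians were -0.31 and 0.27, small folds that nevertheless differed in 20 of the 23. FEN1, the flap endonuclease, went from 88.2, 84.0 and 90.6 CPM to 72.1, 66.1 and 66.0 CPM with GO-203 and from 57.6, 54.9 and 52.6 CPM to 79.6, 80.2 and 72.3 CPM on silencing. UHRF1, a reader of hemimethylated DNA, changed by -0.60 (SE 0.05) and 0.27 (SE 0.05), and MCM3, a subunit of the replicative helicase, by -0.31 and 0.39. TYMS, thymidylate synthase, changed by -0.64 and 0.28, and its silencing effect was no longer called without replicate 3 of the vehicle group or replicate 1 of the DOX group. TYMS also shares 47.9% of its exon bases with a gene on the other strand. RRM2, a ribonucleotide reductase subunit, fell in both arms by 0.40 and 0.46. Of 23 G2 and M phase genes, 20 fell and none rose with GO-203, 13 fell and 5 rose on silencing, 11 fell in both and 5 moved in opposite directions. The kinetochore protein gene CENPF changed by -0.32 and 0.38, while PLK1, a mitotic kinase, fell by 0.37 and 0.35. BIRC5, or survivin, changed by -0.37 and 0.19, and its silencing effect was no longer called without replicate 3 of the vehicle group (adjusted p = 0.238) or replicate 2 of the DOX group (adjusted p = 0.11).

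About as many interferon-stimulated genes rose with GO-203 as fell on silencing. Of 21 tested, 11 rose, none fell and 10 did not pass with GO-203, 12 fell and 3 rose on silencing, and 6 rose with GO-203 and fell on silencing. The medians were 0.43 and -0.58. IFIT2, an antiviral RNA-binding family protein, went from 2.08, 3.06 and 1.98 CPM to 4.30, 5.21 and 4.55 CPM with GO-203 and from 2.18, 1.76 and 1.90 CPM to 0.906, 0.654 and 0.856 CPM on silencing. The groups of both arms did not overlap, and the effects of 0.98 and -1.28 differed by 2.27 (SE 0.29, adjusted p = 3.8e-07). MX1, a dynamin-like antiviral GTPase, changed by 1.43 and -1.70, IFI44 by 1.51 and -2.16 and IFIT1 by 1.29 and -0.58, all at under 5 CPM. IFIH1, the RNA sensor MDA5, went against the list with a rise in both arms, of 0.70 and 1.74, and HERC5, a ligase of the ubiquitin-like ISG15, rose by 0.72 and 0.55.

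An interferon-response element can be written as TTTC, any 2 bases, and TTTC again. A match on either strand lay in the promoters of 3 of the 4 genes with a RefSeq promoter among the 6 that moved in opposite directions, beside 2.77% of the promoters of genes tested. These genes were taken from a list of interferon-stimulated genes, so this share does not bear on their opposite movement. The other members of the list were not counted. The matches before the start of IFI44 and IFIT1 are shown in capitals, of which IFIT1 has 2.
IFI44, chromosome 1, 78649741 to 78649788, plus strand: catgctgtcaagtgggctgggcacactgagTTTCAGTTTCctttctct
IFIT1, chromosome 10, 89392490 to 89392559, plus strand: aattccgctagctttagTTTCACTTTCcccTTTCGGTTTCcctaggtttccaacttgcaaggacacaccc
Over all genes that rose with GO-203 and fell on silencing by the fold and adjusted p thresholds, the element was in 6.56% of 61 promoters. The 6 genes above were taken at the adjusted p alone.

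**Figure D3:**
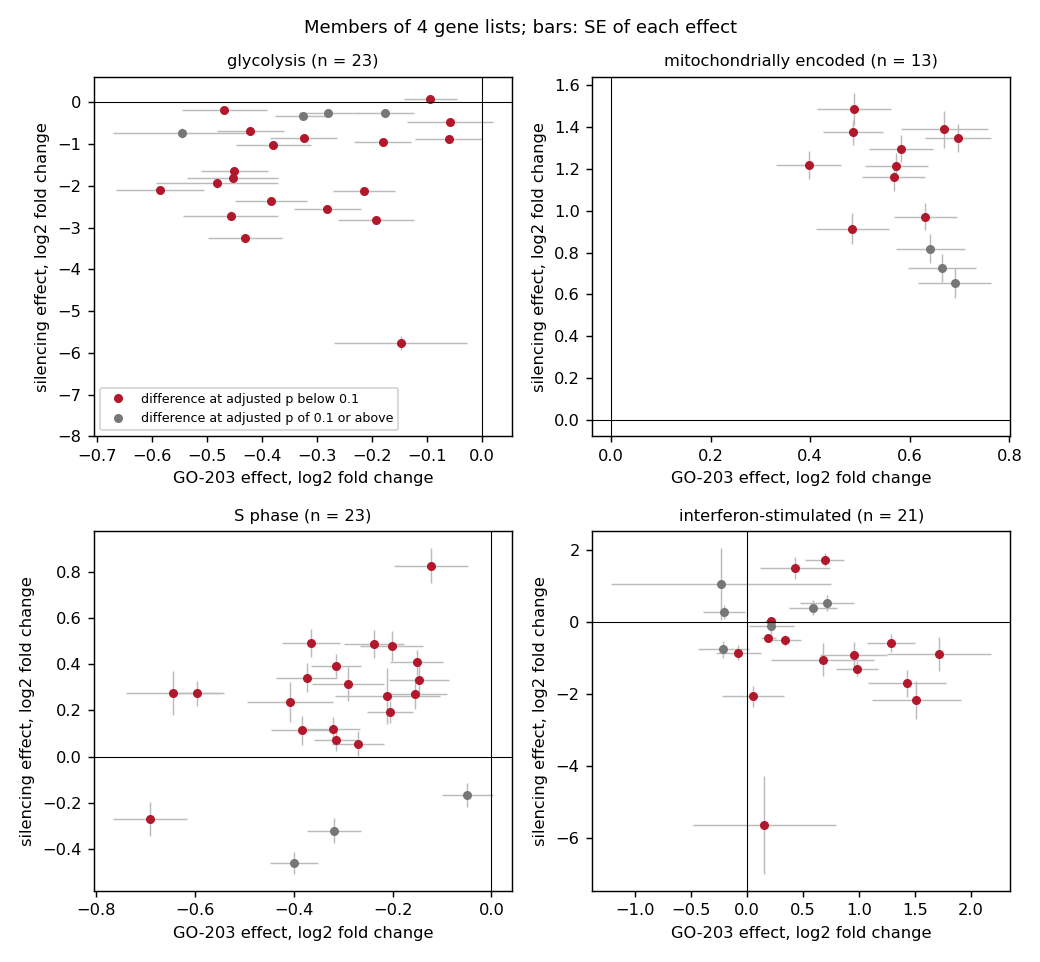
Each point is a gene, with the GO-203 effect on the horizontal and the silencing effect on the vertical axis, both as log2 fold changes with SE bars, in the lists of 23 glycolysis, 13 mitochondrially encoded, 23 S phase and 21 interferon-stimulated genes. Glycolysis genes lie lower left but for 1 with a silencing effect just above 0, mitochondrially encoded genes upper right, most S phase genes upper left and most interferon-stimulated genes lower right.

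Lipid and stress-response genes were lowered by silencing, with smaller median changes under GO-203. Of 24 cholesterol synthesis genes, 21 fell and 2 rose on silencing, while 5 fell and 3 rose with GO-203, and the medians were -0.59 and -0.06. The 3 that rose with GO-203 fell on silencing. HMGCS1, which makes the HMG-CoA of the pathway, was at 573, 589 and 605 CPM in control cells and at 574.5, 564 and 651 CPM with GO-203. It went from 912, 888 and 837 CPM to 299, 301 and 287 CPM on silencing. The groups overlapped under GO-203, with an effect of 0.02 (SE 0.05), and stood apart on silencing (-1.57, SE 0.05). HMGCS1 shares 37.7% of its exon bases with genes on the other strand. INSIG1, which retains SREBP in the endoplasmic reticulum, changed by -0.22 and -1.92.

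Of 12 fatty acid synthesis genes, 11 fell and 1 rose on silencing, and 5 of those that fell rose with GO-203, while 1 fell. The desaturase FADS1 changed by 0.25 (SE 0.05) and -1.87 (SE 0.05), and the desaturase SCD by 0.30 and -0.55. FASN, the fatty acid synthase, did not pass with GO-203 (-0.12, adjusted p = 0.12) and fell by 1.0 on silencing.

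ATF4 is the transcription factor of amino acid and integrated stress. Of 22 genes listed for the ATF4 stress response, 17 fell and 4 rose on silencing, while 4 rose and 4 fell with GO-203. The medians were -0.97 on silencing and -0.06 with GO-203. TRIB3, a pseudokinase, changed by 0.12 (SE 0.07) and -1.45 (SE 0.07), and ATF3 by 0.43 and -1.17. ASNS, asparagine synthetase, changed by -0.05 (SE 0.18) and -2.08 (SE 0.18). Since 49.3% of the exon bases of ASNS also belong to other genes on the same strand, its counts are uncertain. SLC7A11, the cystine transporter, rose in both arms by 0.70 and 0.84. Of 15 endoplasmic reticulum chaperones, 13 fell and 2 rose on silencing, and 3 rose and none fell with GO-203. HSPA5 (BiP), the main chaperone of the lumen, was at 1646, 1592 and 1667 CPM in control cells and at 1499, 1404 and 1649 CPM with GO-203, while silencing lowered it from 2700, 2757 and 2225 CPM to 711, 728 and 674 CPM. Its effects were -0.11 (SE 0.06) and -1.86 (SE 0.06).

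**Figure D4:**
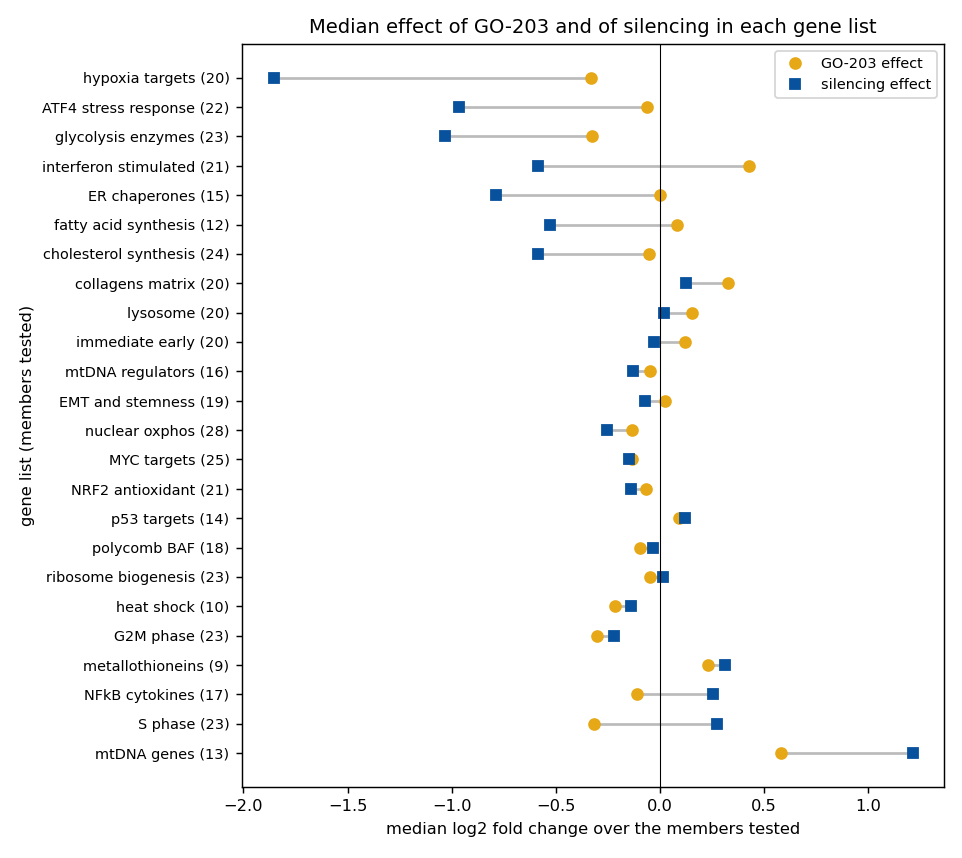
For each gene list, with the number of members tested in brackets, the circle is the median GO-203 effect and the square the median silencing effect, as log2 fold changes. The hypoxia, ATF4, glycolysis, chaperone and cholesterol lists have squares far to the left of their circles, the S phase and interferon lists have them on opposite sides of 0, and the mitochondrial list has both to the right.

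Matrix genes rose with GO-203 and divided on silencing. Of 20 collagen and matrix genes, 14 rose and none fell with GO-203, and 10 rose and 8 fell on silencing. COL4A1, a basement membrane collagen, rose by 0.66 and 0.85, and COL1A1, a fibrillar collagen, by 0.90 and 0.48. COL3A1 rose by 1.06 with GO-203 and fell by 0.68 on silencing, and COL6A1 changed by 0.14 and -1.47. The GO-203 effect of COL6A1 was not called by DESeq2 (adjusted p = 0.152), in 3 other alternatives or in 9 of the 12 fits that left out 1 library. THBS1, thrombospondin 1, rose in both, but from 128, 132 and 125 CPM to 155, 159 and 151 CPM with GO-203 and from 56.9, 49.3 and 61.0 CPM to 1229, 1197 and 1166 CPM on silencing.

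Growth-factor response genes divided gene by gene. Of 20 immediate early genes and ERK feedback genes, 8 rose and 6 fell with GO-203 and 8 rose and 8 fell on silencing. The transcription factor EGR1 changed by 0.75 and -0.55, and FOS rose by 1.18 and 0.39. Of the feedback inhibitors of ERK signalling, DUSP6 changed by -0.57 and 1.52 and SPRY4 by -0.68 and 0.83, while DUSP4 fell by 1.33 and 0.54. DUSP6 shares 28.6% of its exon bases with genes on the other strand. Of 17 NF-kB target cytokines and regulators, 3 rose and 4 fell with GO-203 and 10 rose and 3 fell on silencing, with medians of -0.11 and 0.26. The neutrophil chemokine CXCL8 fell in both arms by 0.79 and 2.09, and CXCL1 changed by -0.73 and 0.56.

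Of 19 genes of epithelial-mesenchymal transition and stemness, 2 rose and 4 fell with GO-203 and 8 rose and 8 fell on silencing. The repressors ZEB1 and ZEB2 fell on silencing by 1.42 and 1.48, beside GO-203 effects of -0.13 and 0.15 whose calls did not hold in several alternatives, and the receptor NOTCH3 fell by 3.35 beside -0.08 (SE 0.09). Of 25 MYC targets, 11 fell and 1 rose with GO-203 and 14 fell and 5 rose on silencing, with medians of -0.13 and -0.15. TFRC, the transferrin receptor, rose by 0.82 and 0.32.

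In the lists that follow, members passed in both directions in each arm. Of 10 heat shock genes, 8 fell and 1 rose with GO-203 and 6 fell and 1 rose on silencing, with 4 lower in both, and the chaperone HSPH1 changed by -0.59 and 0.60. Of 21 NRF2 antioxidant genes, 6 fell and 2 rose with GO-203 and 11 fell and 5 rose on silencing, and FTL, the ferritin light chain, changed by -0.03 (SE 0.05) and -0.91, with 16 pseudogenes named after it. Of 23 ribosome biogenesis genes, 5 fell and 1 rose with GO-203, while 8 rose and 7 fell on silencing. Of 20 lysosomal genes, 9 rose and 2 fell with GO-203 and 8 rose and 9 fell on silencing. Of 14 genes in a list of p53 targets and G1 regulators, 5 rose and 3 fell with GO-203 and 7 rose and 6 fell on silencing. The list includes CCND1 and CDKN2B, an inhibitor of the G1 kinases that changed by 0.81 and -0.52. Of 18 polycomb and BAF genes, 7 fell and 1 rose with GO-203 and 8 fell and 3 rose on silencing, and the polycomb gene BMI1 changed by 0.13 (SE 0.05, adjusted p = 0.10) and -0.79, with 22.8% of its exon bases shared with genes on the same strand. Of 16 regulators of mitochondrial DNA, 4 fell and 1 rose with GO-203 and 7 fell and 4 rose on silencing, and POLG, the mitochondrial DNA polymerase, fell by 0.28 and 1.04. Of 9 metallothioneins and zinc genes, 3 rose and 1 fell with GO-203 and 4 rose and 2 fell on silencing, and the zinc exporter SLC30A1 changed by 0.62 and -0.46.

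The tet-MYCshRNA line with and without DOX gave a comparison on 6 libraries, at passage 8, that enter none of these groups. Among 19191 genes tested in both fits, DOX in that line raised 20.1% and lowered 17.4%. It raised 62.3% and lowered 3.57% of the shared rises, and lowered 52.8% and raised 17.3% of the shared falls. Of the genes that rose with GO-203 and fell on silencing it raised 71.6% and lowered 6.32%, and of those that fell with GO-203 and rose on silencing it lowered 50.5% and raised 15.3%. The direction seen with GO-203 was thus the more frequent one in the oppositely moved genes, a difference that was not tested. CNR1 rose there by 3.97, IL6 by 1.05 and IFIT2 by 3.56, and ADAM19 fell by 1.60 and NOS2 by 0.68. IL7R went against this, with a fall by 0.67 (adjusted p = 0.053), and MAST4 did not pass (-0.15, adjusted p = 0.13). Of the genes raised by GO-203 alone it raised 56.5% and lowered 5.65%. Of those raised by silencing alone it raised 31.3% and lowered 15.6%, and of those lowered by silencing alone it raised 24.1% and lowered 16.6%, the latter pair near the 20.1% and 17.4% of all genes.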

How the data were processed

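Stranded mRNA libraries (TruSeq) were sequenced from 12 cultures. The authors deposited raw counts per gene, made by aligning reads to GRCh38 with STAR (2.7.3a in the submitters' processing notes) and counting with featureCounts. The annotation release, strand setting and handling of multi-mapping reads are not given in the sources used here. Genes without a value in a block of libraries were read as 0, since no gene listed there has a total of 0. In R 4.3.3, 20829 of 42339 genes passed filterByExpr, were scaled by TMM factors and fitted over the 12 libraries with 4 group means by edgeR 4.0.16's quasi-likelihood test, with Benjamini-Hochberg adjustment over all genes tested. All effects are log2 fold changes from this fit, with their standard errors (SE). CPM uses TMM library sizes. No replicate pair agreed within sampling noise (chi-square over its degrees of freedom 4.13 to 13.6).

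The genes moved alike, oppositely or alone, the gene lists and the alternatives were chosen with earlier results of these data known. Genes were named by the smaller of both folds (moved by both), by the GO-203 effect (GO-203 alone) or by the difference (silencing alone), among genes with a mean normalized count of at least 100 whose called groups do not overlap, and by the largest differences in each list. Other list members are named as examples, chosen after their values were seen. Positions are from GENCODE release 44 and promoters (250 bases before to 50 after the start) from RefSeq. The alternatives were DESeq2 1.42.0, RLE factors, library size alone, scaling without mitochondrial genes, other filters and thresholds, all 21 libraries, separate fits, the replicate block and leaving out each library. The steps were tested on simulated data with planted effects far above the fold threshold, in genes with a mean count of at least 100. Recovery of smaller effects or of lower genes was not tested.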

Additional observations from a re-analysis of the deposited data

How the results depend on the processing

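With 3 libraries a group, small effects of low genes are imprecise. A mean normalized count of at least 100 did not keep every group well counted. ZNF488 had 6, 8 and 10 counts with DOX, and SERPINB2 had 6, 6 and 5 counts with GO-203. With 1 library left out at a time, 972 to 1291 genes were changed by GO-203, 5782 to 6422 by silencing, 330 to 439 moved alike, 183 to 218 oppositely, 5085 to 5508 that differed, 184 to 261 moved by GO-203 alone and 2819 to 3135 by silencing alone. The same fits gave 17 to 19 glycolysis genes and 13 to 16 hypoxia targets lower in both arms, 13 mitochondrially encoded genes higher in both, 10 to 14 S phase and 5 to 7 interferon-stimulated genes moved in opposite directions, and 11 to 12 G2 and M phase genes lower in both. DESeq2 gave 400 genes moved alike, 384 of them shared with the 415, and 206 moved oppositely, 191 shared with the 214.

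With an absolute log2 fold change above 1.5, 251 genes changed with GO-203 and 1938 on silencing, 61 moved alike, 27 oppositely, 1789 differed, 66 moved with GO-203 alone and 962 on silencing alone. With the adjusted p alone these were 4960, 11693, 2235, 1444, 9353, 799 and 5623. With a mean CPM of at least 1, 3969 genes changed on silencing, 126 moved with GO-203 alone and 1960 on silencing alone. With a mean normalized count of at least 100, chosen after seeing the data, 208 moved alike, 129 oppositely, 77 with GO-203 alone and 1705 on silencing alone.

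Scaling by library size alone moved the median silencing effect of all genes from 0.03 to 0.20. The share of rises then went from 53.7% to 69.5% of the genes changed by silencing, and from 49.1% to 66.0% of those moved by silencing alone. The share of differences that were higher with GO-203 went from 52.3% to 37.5%, and 6 in place of 11 G2 and M phase genes fell in both. The silencing effect of HSP90AA1 turned from -0.15 to 0.018, and the silencing medians of the MYC target, EMT, immediate early, heat shock, NRF2, mtDNA regulator and polycomb lists changed sign. The silencing median went from -0.25 to -0.09 for nuclear genes of oxidative phosphorylation, whose median difference went from 0.15 to -0.0095, from -0.22 to -0.05 for G2 and M phase genes and from 0.27 to 0.44 for S phase genes.

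Whether the replicate numbers pair the samples cannot be settled with 3 libraries a group. Deviations of same-numbered treated and control libraries correlated at -0.037 to 0.361 under GO-203 and -0.0941 to 0.174 on silencing. Libraries with other numbers correlated at -0.393 to 0.218 and at -0.18 to 0.166. The means were 0.168 beside -0.0843 under GO-203 and 0.0422 beside -0.0218 on silencing. Blocked by replicate number, 1199 genes changed with GO-203, 6104 on silencing, 421 moved alike, 216 oppositely, 5295 differed, and 216 and 2932 moved alone. Of 300 called effects of named genes, 18 lost their call in another alternative and 14 without a library.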
